A study of Mus musculus with 7 samples.

Results

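A set of 9 genes of sugar handling in the enterocyte, the absorptive cell of the gut, was followed in the mouse duodenum. They were chosen by name and role, with no threshold on measured values, but with earlier results of these data known. The set covers 4 steps: entry of glucose and fructose (Slc5a1, Slc2a2 and Slc2a5), trapping of fructose (Khk), release of glucose from glucose-6-phosphate (G6pc and Slc37a4) and the earlier gluconeogenic steps (Fbp1 and Pck1). Mlxipl is included as a sugar-responsive transcription factor. All 9 were among the 14795 listed genes and all 9 were among the 13399 genes that passed a filter on low values. RNA from whole duodena was sequenced in 7 libraries, 3 from Ppara lox/lox controls and 4 from Ppara I-KO animals, each with its own biological replicate number. The question was whether loss of the fatty acid sensor PPARα in the gut epithelium goes with altered RNA of these genes.

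By the labels all mice were C57BL/6, by the methods they were males and the controls were littermates, and all carried the loxP-flanked Ppara alleles. The Ppara lox/lox controls had no Cre, whereas Ppara I-KO mice carried the Villin-Cre transgene, which is active in the intestinal epithelium from development onward and not in muscle, vessels or immune cells of the gut wall. There was no group with Cre and wild-type Ppara, so Cre itself and loss of PPARα cannot be told apart. By the labels, food was withheld for 6 h in the light phase and given back for 6 h, and tissue was taken at the end of this refeeding. The methods instead give a fast before sacrifice unless specified otherwise, so the fed state rests on the labels. The labels name no diet, and the methods give a high-fat diet of 8 weeks.

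Dietary glucose enters the enterocyte with sodium through SGLT1, encoded by Slc5a1, at the brush border. Fructose enters through GLUT5, encoded by Slc2a5, and both sugars leave toward the blood through GLUT2, encoded by Slc2a2. Ketohexokinase, encoded by Khk, phosphorylates fructose, and later enzymes, triokinase among them, carry its carbon to triose phosphates. These can be rebuilt to glucose through fructose-1,6-bisphosphatase (Fbp1), while Pck1 lets carbon enter from oxaloacetate. In the last step glucose-6-phosphate is carried into the endoplasmic reticulum by the transporter encoded by Slc37a4 and cleaved there by the catalytic subunit encoded by G6pc. Mlxipl encodes ChREBP, which binds DNA at carbohydrate response elements made of paired E-boxes and is known to act on several genes of this pathway.

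The promoters of the 4 genes whose values did not overlap between the genotypes are shown first, as the 250 bases before the RefSeq start in GRCm38.p6, all on the + strand. Capitals mark the letters CACGTG, the core of an E-box, which reads the same on both strands, or AGGTCA, a nuclear receptor half-site, written TGACCT where it lies on the reverse strand. The window of Khk is chr5:30921309-30921558, that of G6pc is chr11:101367466-101367715, that of Slc37a4 is chr9:44396696-44396945 at the first of 3 starts, and that of Slc2a5 is chr4:150119094-150119343. The GENCODE models of these 4 genes begin inside the windows, upstream of the RefSeq starts.
Khk: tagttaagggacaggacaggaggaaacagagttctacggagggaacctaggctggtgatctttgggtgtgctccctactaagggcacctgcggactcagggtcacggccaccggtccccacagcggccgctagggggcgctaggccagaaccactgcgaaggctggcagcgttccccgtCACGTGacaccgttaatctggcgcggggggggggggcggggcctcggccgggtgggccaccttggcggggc
G6pc: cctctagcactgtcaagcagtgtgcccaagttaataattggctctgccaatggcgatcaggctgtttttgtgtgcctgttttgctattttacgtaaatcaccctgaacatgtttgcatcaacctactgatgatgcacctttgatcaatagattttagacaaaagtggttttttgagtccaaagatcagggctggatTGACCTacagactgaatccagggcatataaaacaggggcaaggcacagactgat
Slc37a4: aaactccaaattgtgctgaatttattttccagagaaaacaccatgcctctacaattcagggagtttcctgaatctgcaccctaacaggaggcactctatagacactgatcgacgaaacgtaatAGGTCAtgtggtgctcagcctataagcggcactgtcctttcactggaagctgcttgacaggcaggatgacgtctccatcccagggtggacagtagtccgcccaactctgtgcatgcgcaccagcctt
Slc2a5: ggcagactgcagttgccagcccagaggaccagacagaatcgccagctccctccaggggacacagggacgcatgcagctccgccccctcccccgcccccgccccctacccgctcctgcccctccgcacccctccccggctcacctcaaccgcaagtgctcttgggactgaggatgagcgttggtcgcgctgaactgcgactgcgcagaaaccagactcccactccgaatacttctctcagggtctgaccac

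The E-box letters lay 71 bases before the start of Khk. They were also found 143 bases before the start of Slc5a1 and 98 bases before the first of 2 starts of Mlxipl. The half-site letters lay 54 bases before the start of G6pc on the reverse strand and 127 bases before that of Slc37a4, and they were found 21 bases before the start of Slc2a2. The window of Slc2a5 held neither. Searched on both strands, 3 of the 12 start windows of the 9 genes held CACGTG and 3 held AGGTCA, while 6.02% and 14.0% of all 32851 RefSeq windows of this length did. No window held both motifs among these 12. A match of letters is a description of the sequence, and binding was not measured here.

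Values are normalized counts scaled to library size (CPM), and fold changes are on the log2(CPM + 1) scale, I-KO minus lox/lox, with a standard error (SE). By limma with Benjamini-Hochberg adjustment over all tested genes, none of the set, 0 of 9, was called at an adjusted p of 0.05 (adjusted p 0.954 to 0.992), against 0.0224% of all genes called higher in I-KO (3 genes). At an unadjusted p of 0.05, 4 of the 9 were higher in I-KO and 0 lower, where 2.32% of all genes were higher at that level. The same 4, Slc2a5, Khk, G6pc and Slc37a4, had every I-KO value above every lox/lox value, as had 2.91% of all genes. The fold changes of all 9 were above 0, between 0.02 and 0.47, although that of Mlxipl turned to -0.018 when libraries were scaled to column totals, to -0.022 without I-KO replicate 1 and to -0.014 without I-KO replicate 2. Of all genes, 50.6% lay above 0. The 9 genes were chosen with earlier results of these data known, so these shares describe them and are not a test of the set. The median fold change was 0.24 for the 9 genes and 0.0017 for all tested genes. In whole tissue, a different share of a cell type and a different amount of RNA per cell cannot be told apart.

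**Figure D1:**
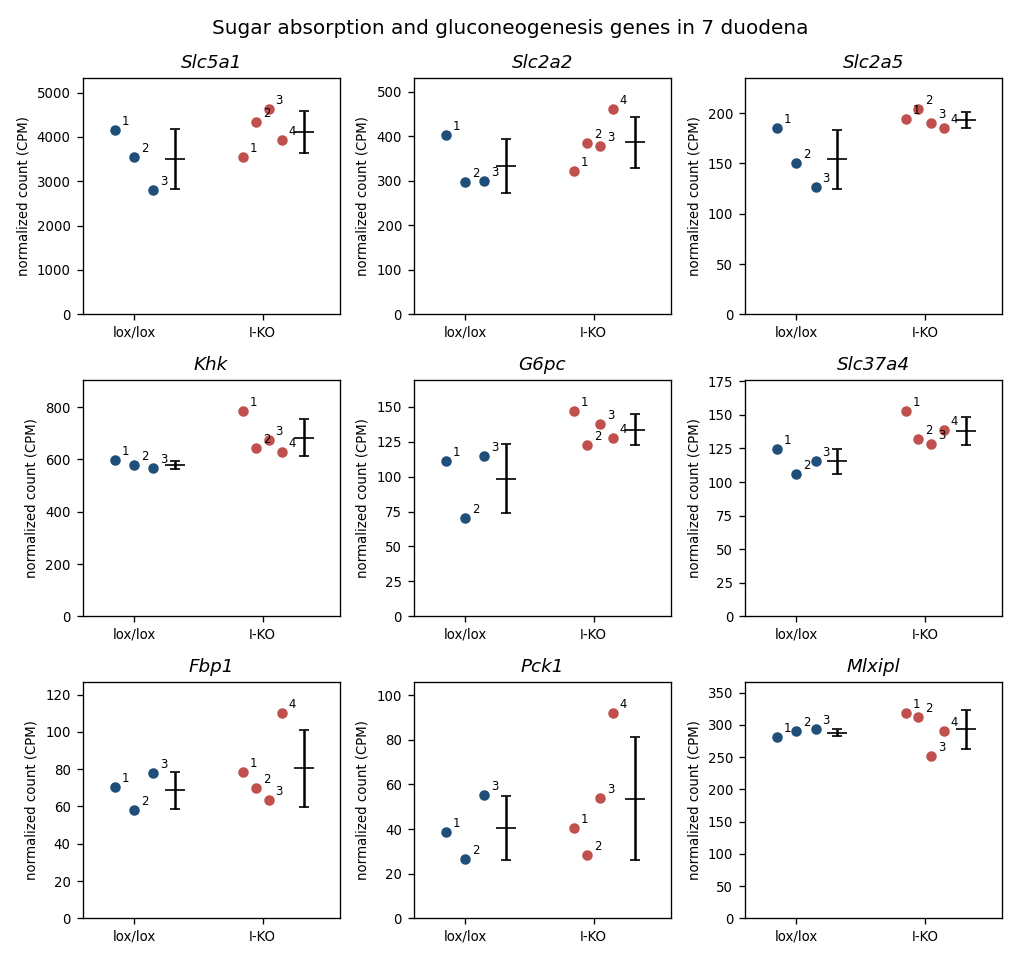
Normalized count (CPM, vertical axis from 0) of each of the 9 genes in 3 lox/lox and 4 I-KO duodena. Points are libraries with their replicate number, and the bar beside them is the mean ± SD; the groups are apart for Slc2a5, Khk, G6pc and Slc37a4 and overlap for the other genes.

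Slc5a1, the sodium-coupled glucose transporter, lies at chr5:33104219-33162870 (GRCm38, + strand), and here and below values are given in the order of the replicate numbers. The lox/lox duodena read 4155, 3551 and 2798 CPM. The I-KO duodena read 3553, 4328, 4627 and 3930 CPM. The groups overlapped, since I-KO replicates 1 and 4 lay below lox/lox replicate 1, and the lowest value was that of lox/lox replicate 3. The means were 3500 ± 680 CPM (SD, n = 3) and 4110 ± 468 CPM (SD, n = 4). This gave a log2 fold change of 0.24 (SE 0.145, 95% confidence interval -0.087 to 0.572), with an adjusted p of 0.954 by limma. It fell to 0.09 without lox/lox replicate 3 and was 0.38 without lox/lox replicate 1.

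Slc2a2, the basolateral exit for both sugars (chr3:28697903-28731359, + strand), overlapped between the groups as well. Its lox/lox values were 404, 298 and 298 CPM, and its I-KO values were 321, 385, 378 and 461 CPM. Only I-KO replicate 4 was above the highest lox/lox library. The means were 333 ± 60.9 CPM (SD, n = 3) and 386 ± 57.4 CPM (SD, n = 4), and the log2 fold change was 0.22 (SE 0.149, 95% confidence interval -0.121 to 0.552, limma adjusted p = 0.954). Leaving out lox/lox replicate 1 gave a fold change of 0.36, leaving out replicate 2 or 3 of that group gave 0.14, and leaving out I-KO replicate 4 gave 0.13. An antisense gene, 1700112D23Rik, overlaps Slc2a2. The library kit keeps strand, but whether counting used it is not given in the sources used here, so reads of the pair may be mixed.

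Slc2a5, the fructose transporter of the brush border (chr4:150119283-150144169, + strand), read 185.08, 150.14 and 127.02 CPM in the lox/lox duodena. The I-KO duodena read 193.83, 203.95, 189.84 and 185.23 CPM. Every I-KO value was above every lox/lox value, but by a margin of less than 1 CPM between lox/lox replicate 1 and I-KO replicate 4, and the I-KO values were much closer to each other than the lox/lox values. The means were 154 ± 29.2 CPM (SD, n = 3) and 193 ± 7.97 CPM (SD, n = 4). On the log2 scale the fold change was 0.34 (SE 0.123, 95% confidence interval 0.062 to 0.619), a fold of 1.27 (1.04 to 1.54). The unadjusted p by limma was 0.022, and the exact two-sided permutation test gave 0.0286, the smallest that 35 arrangements allow. The adjusted p by limma was 0.954. The groups overlapped when libraries were scaled to column totals or by median-of-ratios size factors.

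Slc5a1 and Slc2a5, the brush border entry genes, were both lowest in lox/lox replicate 3, as was Khk. In the same library 5 of the 8 tested markers of gut region were at their lowest (Gata4, Pdx1, Cybrd1, Slc40a1 and Slc51a). Cybrd1, a duodenal iron reductase, read 16.9 CPM there against 56.1 to 78.5 CPM in the other 6 libraries, and Slc40a1, the iron exporter ferroportin, read 49.3 against 103 to 162 CPM. The list mixes markers of the proximal and the distal gut, and its other tested genes were not lowest in this library. Gata6 read 98.9 CPM in it against 81.3 to 107 CPM in the other 6 libraries. Slc51b read 50.2 against 41.1 to 74.3 CPM, and Onecut2 read 123 against 92.4 to 149 CPM. Slc10a2, a marker of the ileum, stayed between 0.19 and 0.51 CPM in all libraries. Without lox/lox replicate 3 the fold change of Slc2a5 was 0.21, with an unadjusted p of 0.0966 and an adjusted p of 0.93 by limma. The part of gut position in these differences was not tested.

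Khk, which traps fructose as fructose-1-phosphate (chr5:30921431-30931248, + strand), had the tightest controls but for Mlxipl. The lox/lox values were 597, 577 and 567 CPM. The I-KO values were 784, 643, 673 and 628 CPM, all above the controls, with replicate 1 well above the rest. The means were 580 ± 15.1 CPM (SD, n = 3) and 682 ± 70.6 CPM (SD, n = 4). The genotypes differed by a log2 fold change of 0.23 (SE 0.096, 95% confidence interval 0.011 to 0.444), a fold of 1.17 (1.01 to 1.36), with an unadjusted p of 0.0411 and an adjusted p of 0.954 by limma. The exact permutation test, two-sided, gave 0.0571. Without I-KO replicate 1 the fold change was 0.16, with an unadjusted p of 0.0739 and an adjusted p of 0.981 by limma.

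Other genes of fructose breakdown and sugar phosphorylation were measured beside Khk. Triokinase, listed under its older symbol Dak, averaged 821 ± 95.5 CPM (SD, n = 3) and 937 ± 70.8 CPM (SD, n = 4), with some overlap, and had a log2 fold change of 0.19 (limma adjusted p = 0.954). Hkdc1, a member of the hexokinase family, had a fold change of 0.09. Sord, encoding sorbitol dehydrogenase, which makes fructose from sorbitol, averaged 221 ± 16.4 CPM in lox/lox (SD, n = 3) and 255 ± 51.8 CPM in I-KO duodena (SD, n = 4), with a fold change of 0.19 (limma adjusted p = 0.954). Hk2, encoding hexokinase 2, went the other way, at 22.9 ± 4.06 CPM in lox/lox (SD, n = 3) and 18.5 ± 1.98 CPM in I-KO duodena (SD, n = 4), with a fold change of -0.29 (95% confidence interval -0.579 to 0.004, limma adjusted p = 0.954). Of the 7 genes of this list counted here, 0 passed by limma at the adjusted or the unadjusted p of 0.05 and 6 lay above 0, with a median of 0.13.

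G6pc, the catalytic subunit that frees glucose from glucose-6-phosphate, had the largest fold change of the 9 genes (chr11:101367561-101377903, + strand). It read 111, 70.1 and 114 CPM in lox/lox and 147, 123, 138 and 127 CPM in I-KO duodena. All I-KO values lay above the controls, and lox/lox replicate 2 lay far below the other 2 controls. The means were 98.5 ± 24.7 CPM (SD, n = 3) and 134 ± 10.9 CPM (SD, n = 4). Its log2 fold change was 0.47 (SE 0.166, 95% confidence interval 0.089 to 0.842), a fold of 1.38 (1.06 to 1.79). By limma the unadjusted p was 0.0209 and the adjusted p 0.954, and the exact two-sided permutation test gave 0.0286. Without lox/lox replicate 2 the fold change was 0.24, with an unadjusted p of 0.06 by limma, which does not pass, and an adjusted p of 1.0.

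Slc37a4, the glucose-6-phosphate carrier that feeds this enzyme (chr9:44396852-44402968, + strand), read 125, 106 and 116 CPM in lox/lox duodena. In I-KO duodena it read 153, 132, 128 and 139 CPM, each above the highest control. The means were 115 ± 9.28 CPM (SD, n = 3) and 138 ± 10.7 CPM (SD, n = 4). The log2 fold change was 0.26 (SE 0.095, 95% confidence interval 0.042 to 0.471), a fold of 1.19 (1.03 to 1.39). By limma the unadjusted p was 0.0243 and the adjusted p 0.954, and the exact two-sided permutation test gave 0.0286. The groups overlapped when libraries were scaled to column totals.

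**Figure D2:**
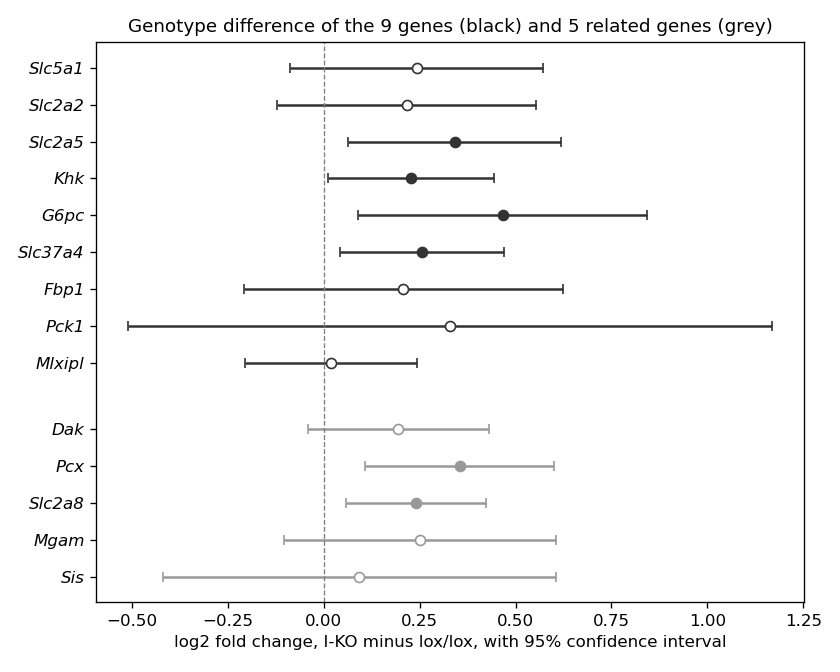
Log2 fold change, I-KO minus lox/lox (horizontal axis), of the 9 genes (black) and 5 related genes (grey), with 95% confidence intervals from limma and filled points where the groups did not overlap. The intervals of Slc2a5, Khk, G6pc and Slc37a4 lie above 0 before any adjustment, and that of Pck1 is the widest.

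I-KO replicate 1 held the highest value of Khk, G6pc, Slc37a4 and Mlxipl. The same library carried RNA of the exocrine pancreas, with 14 of 14 listed acinar genes at their highest and a summed level of 437 CPM, where the remaining I-KO libraries had between 28.4 and 46.9 CPM. The second highest sum, 101 CPM, was that of lox/lox replicate 2, which held the lowest value of 5 of the 9 genes (Slc2a2, G6pc, Slc37a4, Fbp1 and Pck1). All 8 smooth muscle markers were also highest in I-KO replicate 1, with a sum of 1670 CPM against 1150 to 1430 CPM in lox/lox duodena. Without I-KO replicate 1 the fold changes of G6pc and Slc37a4 were 0.42 and 0.21, with an unadjusted p of 0.0521 and an adjusted p of 0.981 by limma for each. Groups that are apart stay apart when a library is left out, so this omission could not test the separation of the 4 genes. Without this library 5.01% of all genes had every I-KO value above every lox/lox value. What these cells contributed to the 9 genes was not tested.

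Fbp1, which removes a phosphate from fructose-1,6-bisphosphate (chr13:62864753-62888282, minus strand), read 70.2, 57.9 and 77.7 CPM in lox/lox duodena. It read 78.6, 70.0, 63.5 and 110.0 CPM in I-KO duodena, where replicate 4 was high and the others lay within or next to the control range. The means were 68.6 ± 10.01 CPM (SD, n = 3) and 80.5 ± 20.6 CPM (SD, n = 4). The log2 fold change was 0.21 (SE 0.184, 95% confidence interval -0.209 to 0.623, limma adjusted p = 0.954), and it was 0.048 without I-KO replicate 4 and 0.092 without lox/lox replicate 2.

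Pck1, the cytosolic enzyme that makes phosphoenolpyruvate from oxaloacetate (chr2:173153048-173159273, + strand), varied most. Its lox/lox values were 38.8, 26.7 and 55.4 CPM, and its I-KO values were 40.3, 28.2, 53.8 and 91.9 CPM. Apart from I-KO replicate 4 the libraries covered the same range in both genotypes. The means were 40.3 ± 14.4 CPM (SD, n = 3) and 53.6 ± 27.6 CPM (SD, n = 4). The log2 fold change was 0.33 (SE 0.37, 95% confidence interval -0.509 to 1.168, limma adjusted p = 0.959), and it was 0.03 without I-KO replicate 4. Without lox/lox replicate 2 it was 0.072, and without lox/lox replicate 3 or I-KO replicate 2 it was 0.58. The interval covers folds from 0.703 to 2.25.

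Of the other genes of gluconeogenesis, Pcx, encoding pyruvate carboxylase, which makes oxaloacetate from pyruvate, had the largest fold change. It read 110, 89.2 and 97.2 CPM in lox/lox and 127, 116, 145 and 118 CPM in I-KO duodena, without overlap. Its log2 fold change was 0.35 (SE 0.109), with an unadjusted p of 0.0102 and an adjusted p of 0.845 by limma. Fbp2 and Slc25a10 differed little (0.003 and 0.001), as did the mitochondrial Pck2 (0.032) and the ubiquitous phosphatase gene G6pc3 (-0.031). Gapdh and Tpi1, shared with glycolysis, and Mdh1, encoding cytosolic malate dehydrogenase, lay at 0.11, 0.11 and 0.08. Of 18 tested genes of the list, 0 passed the adjusted p, 1 (Pcx) was higher and 0 lower at an unadjusted p of 0.05, and 15 lay above 0, with a median of 0.08.

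Mlxipl, encoding ChREBP (chr5:135089890-135138382, + strand), gave nearly the same level in both genotypes. It read 281, 290 and 293 CPM in lox/lox and 318, 313, 251 and 290 CPM in I-KO duodena, where the I-KO values lay on both sides of the narrow control range. The means were 288 ± 5.99 CPM (SD, n = 3) and 293 ± 30.3 CPM (SD, n = 4). The log2 fold change was 0.02 (SE 0.098, 95% confidence interval -0.204 to 0.242, limma adjusted p = 0.992), with the changes of sign given above. The antisense gene Gm43500 overlaps Mlxipl, with the same limit on strand as for Slc2a2. Of the 23 partners and reported targets of ChREBP counted here, 11 lay above 0 and 12 below, with a median of -0.009. Among these 23, 0 passed by limma at the adjusted or the unadjusted p of 0.05. The list leaves out the genes of the set itself, such as Slc2a5, Khk, G6pc and Slc37a4. ChREBP is known to act on several genes of this pathway, so these counts do not describe its targets as a whole. Txnip, a well known glucose-induced gene, had a fold change of -0.009, Pklr, encoding pyruvate kinase, 0.09, and Fasn, encoding fatty acid synthase, -0.096.

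The rest of the absorptive sugar machinery was measured beside the 9 genes. Of the other transporters and their support, 11 were tested, 6 above 0 and 5 below, and 1 was higher at an unadjusted p of 0.05. This was Slc2a8, an intracellular hexose transporter of low level, with 5.38, 5.58 and 5.23 CPM in lox/lox and 6.23, 6.80, 6.14 and 7.07 CPM in I-KO duodena (log2 fold change 0.24), with an unadjusted p of 0.016 and an adjusted p of 0.954 by limma. Slc5a9, Slc5a11 and Sgk1, the last a kinase that acts on transporters, had fold changes of -0.03, 0.15 and -0.07. All 4 brush border disaccharidases lay above 0 and 0 passed at either level. Mgam, encoding maltase-glucoamylase, read 4450, 3729 and 2722 CPM in lox/lox and 3834, 4305, 4659 and 4197 CPM in I-KO duodena, and like Slc5a1 was lowest in lox/lox replicate 3. Sis, encoding sucrase-isomaltase, was lowest in I-KO replicate 1 at 1735 CPM and highest in I-KO replicate 4 at 3645 CPM.

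Regulators known to act on gluconeogenic genes showed no call. Of 12 tested, 4 lay above 0 and 8 below, with a median of -0.041, and 0 passed at an unadjusted or adjusted p of 0.05. Hnf4a, a nuclear receptor of the gut and liver epithelium, had a fold change of -0.022, Foxo1, a target of insulin signalling, 0.02, and Nr3c1, the glucocorticoid receptor gene, -0.013.

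PPARα target genes were listed beside the genotype. Their list was chosen with earlier results of these data known, so it is not an independent check. Ppara itself read 53.4, 49.3 and 63.2 CPM in lox/lox and 33.1, 40.6, 47.5 and 69.9 CPM in I-KO duodena (log2 fold change -0.25, SE 0.22, limma adjusted p = 0.954). A gene total also counts reads outside the floxed part, so it does not measure the deletion. Of 16 tested targets, 11 were lower at an unadjusted p of 0.05 and 0 higher, 1 of them, Me1, at the adjusted level by limma, and the median was -0.64. Of all 13399 tested genes, 324 were lower at the unadjusted level. The summed level of the listed targets was 5470 to 6600 CPM in lox/lox and 3860 to 5010 CPM in I-KO duodena. Most of it was Fabp1, with means of 3670 and 2490 CPM. Enterocyte markers summed to 59600 to 71400 CPM and 59000 to 78200 CPM, mostly Apoa4 and Apoa1, and 0 of 10 passed at either level, with 6 above 0 and 4 below and a median of 0.084. Vil1, encoding the microvillus protein villin, was higher in every I-KO library than in any control (log2 fold change 0.14, limma adjusted p = 0.954), and Alpi, encoding intestinal alkaline phosphatase, had a fold change of 0.31 with overlap. Anpep, encoding aminopeptidase N, and Fabp2, a fatty acid binding protein gene, lay at -0.14 and -0.26. Their part in the values of the 9 genes was not tested. Markers of hepatocytes, which share the gluconeogenic genes, were nearly all Cps1, a gene the duodenum also expresses, and Alb was at most 0.62 CPM.

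Levels were compared between genes per kb of exon, with the exons of all GENCODE transcripts of a gene joined. A gene with annotated exons that are little used here reads lower by this measure, so the order depends on it. In lox/lox duodena Slc5a1 was highest of the 9 genes at 853 ± 166 CPM per kb (SD, n = 3), followed by Khk at 323 ± 8.42. Slc2a2 (57.9 ± 10.6), Mlxipl (52.0 ± 1.08), Slc2a5 (45.3 ± 8.59), G6pc (40.8 ± 10.2), Slc37a4 (40.4 ± 3.25) and Fbp1 (40.3 ± 5.88) followed, all in CPM per kb, and each of these neighbours overlapped the next in its range. Pck1 was lowest at 11.8 ± 4.2 CPM per kb, and its range did not reach that of Fbp1. Slc5a1, Khk, the middle 6 and Pck1 did not overlap with each other in these ranges.

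**Figure D3:**
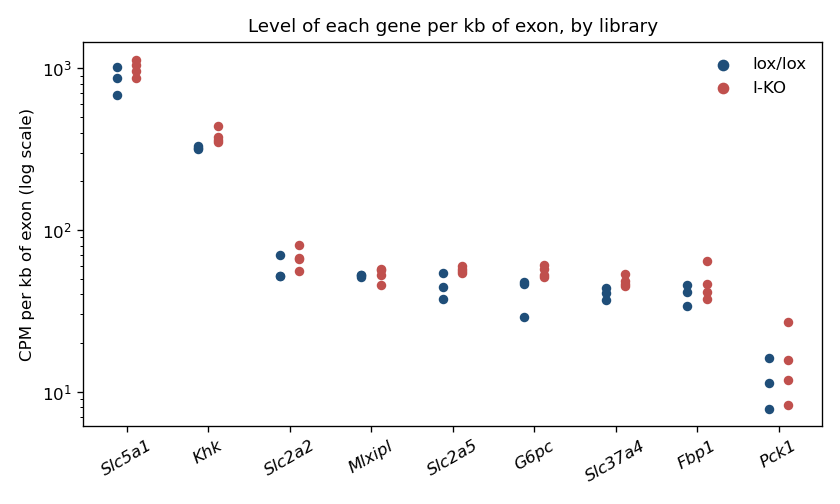
Level of each gene in CPM per kb of exon (vertical axis, log scale), ordered by the lox/lox mean, with 1 point per library, lox/lox left and I-KO right. Slc5a1 and Khk stand above the other genes in both genotypes, and Pck1 is lowest.

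The 9 genes differed in how much they varied between mice of a genotype. The within-group SD on the log2 scale was 0.635 for Pck1, at percentile 99.5 of the 6925 genes with a mean over 20 CPM, 0.297 for Fbp1 (percentile 95.5) and 0.264 for G6pc (percentile 92.9). Slc37a4 (0.112), Khk (0.114) and Mlxipl (0.121) lay near the median of those genes, 0.12. Each library held between 20744162 and 25866656 reads on the listed genes.

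Among the 36 pairs of the 9 genes, 4 had a Pearson r over the 7 libraries with an exact permutation p under 0.05, and 0 of 36 passed Benjamini-Hochberg adjustment. G6pc and Slc37a4, which act in series, had r = 0.86 (exact permutation p = 0.00893, adjusted 0.247) and rho = 0.86 (exact permutation p = 0.0238, adjusted 0.286). Without the 2 libraries farthest from the median of G6pc r was 0.56, and after removing the genotype means it was 0.68. Khk and Slc37a4 had r = 0.86 (exact permutation p = 0.0137, adjusted 0.247) and rho = 0.82 (exact permutation p = 0.0341, adjusted 0.307), with 0.71 and 0.64 by the same steps. Slc5a1 and Slc2a5, both at the brush border, had r = 0.85 (exact permutation p = 0.0224, adjusted 0.266) and rho = 0.68 (exact permutation p = 0.11, adjusted 0.495), with 0.60 and 0.80. Fbp1 and Pck1 had r = 0.80 (exact permutation p = 0.0296, adjusted 0.266) and rho = 0.71 (exact permutation p = 0.0881, adjusted 0.495), with r = 0.78 after removing the genotype means, but r was 0.0 without the 2 farthest libraries, so this relation rests on them. By rank the closest pair was Slc2a5 and Khk, with rho = 0.89 (exact permutation p = 0.0123, adjusted 0.286) and r = 0.66 (exact permutation p = 0.104, adjusted 0.468), and r was 0.32 without the 2 farthest libraries and 0.22 after removing the genotype means. All pairs share the libraries and their scaling, and I-KO replicate 4 was highest for both Fbp1 and Pck1.

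For each of the 9 genes the gene most alike over the 7 libraries was looked up among 9076 genes with a mean over 10 CPM. These were C2 for Slc5a1 (r = 0.988), Ttc38 for Slc2a2 (r = 0.938), Nags for Slc2a5 (r = 0.981), Unk for Khk (r = 0.991), Zswim8 for G6pc (r = 0.965), Arhgef40 for Slc37a4 (r = 0.987), Scrib for Fbp1 (r = 0.972), Wdr7 for Pck1 (r = 0.981) and Abhd14b for Mlxipl (r = 0.981). With 7 libraries such values are common, since between 11 and 83 candidates per gene had an r over 0.9.

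The 4 differences at the unadjusted level depended on single libraries. Without lox/lox replicate 2, 0 of the 9 genes had an unadjusted p under 0.05, where 1.66% of all genes were higher at that level. Without lox/lox replicate 3 there was 1, G6pc (2.84% of all genes), and without I-KO replicate 1 there was 1, Slc2a5 (2.44%). Without lox/lox replicate 1 there were 5 (1.95% of all genes), with Slc5a1 and Slc2a2 added and Khk no longer among them. Scaling to column totals left 2, Slc2a5 and G6pc (1.17% of all genes), and under it 39.4% of all genes lay above 0, with a median of -0.0325. The fold changes of Slc5a1, Slc2a2, Slc2a5, Khk, G6pc, Slc37a4, Fbp1 and Pck1 were above 0 under each of the 15 alternatives run. Not all of these are separate checks of direction. Dropping the filter or fitting an intensity trend, robust or not, cannot change a fold change. A block for the replicate number gave the same fold changes as omitting I-KO replicate 4.

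**Figure D4:**
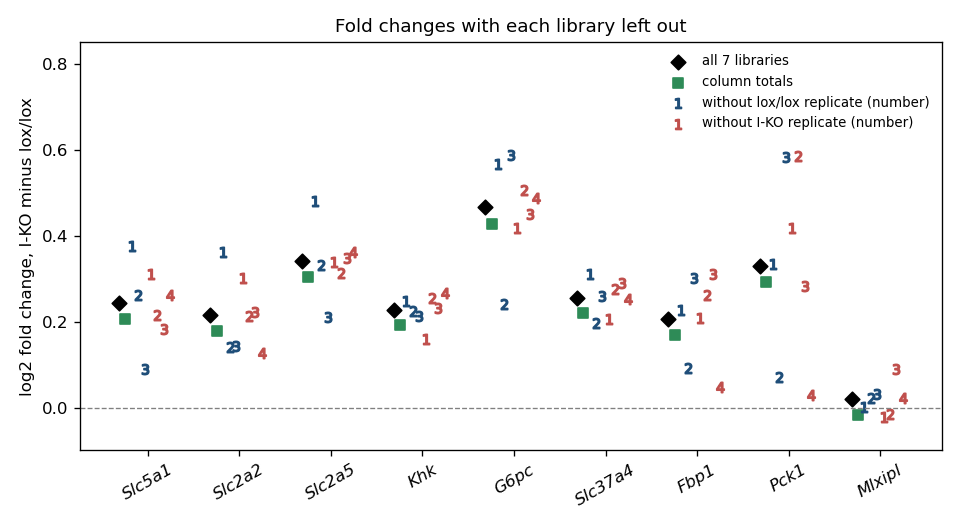
Log2 fold change, I-KO minus lox/lox (vertical axis), of the 9 genes with all 7 libraries (diamond), with libraries scaled to column totals (square) and without each library in turn (its replicate number, blue lox/lox, red I-KO). Values for Khk and Slc37a4 stay close together, those of Pck1 run from 0.03 to 0.58, and those of Mlxipl cross 0.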

How the data were processed

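RNA from 7 duodena was sequenced as single reads of 100 bases from stranded mRNA libraries. The authors deposited 1 table of signal values, normalized counts per gene scaled to an adjusted library size (CPM, given to 2 decimals). The columns summed to between 969589 and 1098618. The submitters' processing notes name FastQC 0.11.2, TopHat2 2.0.13, Picard 1.80, HTSeq 0.6.1, edgeR and the mm10 genome. The study's methods, in a paragraph on jejunum, give a filter on genes above 1 CPM in at least 3 samples, which 1396 of the listed genes fail. A line without a gene name or values was dropped.

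Low values lay on multiples of a step of 0.0393 to 0.053 CPM, the value of 1 read, and between 78.9% and 100.0% of them per library lay within 0.1 of a step. Tests on counts, planned for a table of counts, were not run because the deposited values are normalized. The steps served only for the depth of 20744162 to 25866656 reads.

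Groups were taken from the genotype labels. Each label names a biological replicate, but whether each is 1 mouse follows only from the study's description. The same filter left 13399 genes. A linear model of log2(CPM + 1) on genotype alone was run in limma (version 3.58.1, under R 4.3.3), with two-sided p-values adjusted by Benjamini-Hochberg at 0.05. Single genes were compared by an exact permutation test over 35 arrangements. For the genes with overlap this test gave a p of 0.2 for Slc5a1 and for Slc2a2, 0.457 for Fbp1, 0.514 for Pck1 and 0.943 for Mlxipl. Where the groups are apart, the observed arrangement is already the most extreme on its side. There the exact p adds little to the separation itself. The fit was also run on simulated data with known fold changes. The outcome is not given here, so nothing said about the 9 genes rests on it. Symbols were located in GENCODE M21 (13922 found), and promoters came from RefSeq, which held all 9 genes. Other steps used Python 3.11.15, numpy 2.4.6, pandas 2.3.3, scipy 1.17.1 and matplotlib 3.10.9.

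The 9 genes and the 14 gene lists were chosen with earlier results of these data known. An item of the lists is not reported here, and counts over the lists of fructose breakdown and of ChREBP are without it. From the lists, genes past the adjusted p, genes with an unadjusted p under 0.05 and no overlap, and up to 3 genes of highest level are eligible to be named. Other list genes (Fbp2, Slc25a10, Pck2, G6pc3, Txnip, Fasn, Cybrd1, Slc40a1, Pdx1, Gata6, Slc51b, Slc10a2, Alb, Vil1, Alpi, Anpep, Fabp2 and Hk2) were named after their values were seen. Marker lists covered enterocytes, gut region, hepatocytes, pancreatic acinar cells, smooth muscle, immune cells, and Brunner gland with stomach. Immune markers summed to 3330 to 4630 CPM in lox/lox and 2800 to 4510 CPM in I-KO duodena, and 0 of 9 passed. Alternatives were other scalings, pseudocount, filter, variance model and weights, a block for the replicate number, and the omission of single libraries.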

Additional observations from a re-analysis of the deposited data

Results flagged for a closer look

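In the 4 I-KO libraries, 16 quantities (the 9 genes and summed lists) were searched for a library far from the others by Dixon's gap ratio, with a limit of 0.829. By chance 0.8 would pass and 2 did, both for I-KO replicate 1. The summed pancreatic acinar markers gave a ratio of 0.955, with 437 CPM in that library against 28.4 to 46.9 CPM in the others. The Brunner gland and stomach list, of which Tff2 was the gene found in the table, gave a ratio of 0.958, with 1.2 CPM against at most 0.05 CPM. None of the 9 genes passed the limit. What this library's other tissue contributed to the 9 genes was not tested, and their values without it stand beside the results above. The 3 lox/lox libraries are too few for this search.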

How the results depend on the processing

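The count of the 9 genes at an adjusted p of 0.05 stayed at 0 under the 15 alternatives run, and 0 without each library in turn. At an unadjusted p it was 4, but 2 with column totals, and between 0 and 5 when a library was left out (0 without lox/lox replicate 2, 1 when the third lox/lox or the first I-KO library was omitted). Over all genes the adjusted count was 4, between 3 and 5 with a library left out, 9 under a robust fit with an intensity trend, and 12 once samples were weighted by quality. The fold change of Mlxipl was -0.018 with column totals, and between -0.022 and 0.09 with a library left out (-0.022 without I-KO replicate 1, -0.014 without replicate 2 of that group). The cause was not tested in any of these. Of 135 values for single genes 132 kept their direction, although the fits without a filter or with an intensity trend could not change it. The replicate block repeated the fold changes found without I-KO replicate 4. Of the same 135, 118 kept their side of an unadjusted p of 0.05 and 17 did not (6 for Khk, 4 for Slc37a4, 3 for Slc2a5, 2 for G6pc and 1 each for Slc5a1 and Slc2a2). Of 45 counts 39 stayed within 1.5 times. Column totals put 39.4% of all genes above 0, against 50.6%. Same-numbered libraries deviated together weakly or not at all (r = -0.0141, 0.184 and -0.00923). Differently numbered libraries gave r from -0.355 to 0.283. With so few libraries this cannot settle whether the numbers pair the mice. With the replicate block 0 of the 9 genes passed the adjusted p, 4 the unadjusted p, and 3 of all genes the adjusted p, with fold changes of the 9 at a median of 0.25. I-KO replicate 4 has no partner in that paired fit. Count models were not run, since whole reads were not recovered for nearly all genes.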
